A study of Mus musculus with 12 samples.

Results

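The genes described here are 48 cell cycle and DNA replication genes, taken as a named list from a table of raw read counts for 55291 genes. They comprise 2 proliferation markers, 11 cyclins and cyclin-dependent kinases, 11 genes that license or start replication, 6 genes of DNA synthesis, 5 transcription factors, and 13 genes of mitosis. The counts came from Lin-cKit+ (LK) bone marrow cells, the stem and progenitor fraction left after mature lineages are depleted and cKit+ cells are kept on magnetic beads. LK cells from 12 individual C57BL/6 mice at 12 months of age were sequenced, 3 mice for each of 4 genotypes and 1 library for each mouse. WT mice were the controls. Asxl1Y588XTg mice carry a transgene for a truncated ASXL1 protein, of the kind found in myeloid malignancies. Kdm6bΔ/+ mice had 1 allele of Kdm6b, which encodes a demethylase of H3K27me3, deleted by Mx1Cre after pI:pC injection, and double-mutant (Asxl1Y588XTg;Kdm6bΔ/+) mice had both alterations. The promoter of the transgene is not given in the sources used here, nor whether the sequenced mice without the Kdm6b deletion received pI:pC or carried Mx1Cre. For its transplantation assay, the study describes the WT donors as carrying Mx1Cre. Because Mx1Cre answers to interferon, it is active in cells beyond the blood system, and the deletion was not limited to LK cells.

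Cells enter the cycle when D-type cyclins bind CDK4 or CDK6 and release E2F factors from the retinoblastoma protein. E2F factors then turn on cyclin E, the MCM helicase subunits that are loaded on origins with CDC6 and CDT1, and the enzymes that make and join nucleotides. A later wave, driven by MYBL2 and FOXM1, supplies cyclins A and B, the Aurora and Polo-like kinases, the spindle checkpoint, and the motor proteins of mitosis. In bone marrow, long-lived stem cells divide rarely, whereas most progenitors divide often. In bulk RNA, fewer cells of a type and less RNA for each cell cannot be told apart.

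The libraries held 14451522 to 23482563 counts. All 48 genes were among the 15825 genes with enough counts to be tested, and together they took 1.03% to 1.18% of the counts of a library. Values are given as normalized counts, that is, counts scaled to the same effective library size, and log2 fold changes are from edgeR's quasi-likelihood test. A gene is called upregulated or downregulated when its adjusted p is below 0.05 and its fold change is above 1.5. Kdm6b served as a check of the labels. It stood at 2142, 2372, and 1869 normalized counts in WT mice and 1622, 1529, and 1346 in Kdm6bΔ/+ mice. It stood at 2270, 2303, and 2187 in Asxl1Y588XTg mice and at 1649, 1873, and 1909 in double-mutant mice. Each group with the deletion lay below its counterpart without it, with log2 fold changes of -0.51 ± 0.11 (SE) for Kdm6bΔ/+ against WT and -0.30 ± 0.07 for the second pair, although neither passed the adjusted threshold (adjusted p = 0.279 and 0.0717, edgeR). Reads outside the deleted part of the allele are counted as well.

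The labelled cell type was checked against marker genes. Kit was at 5764 to 7759 normalized counts in every library, and all 8 genes of a stem and progenitor list were tested. Of these, Gata2 was called higher in Asxl1Y588XTg than in WT mice and lower in double-mutant than in Asxl1Y588XTg mice. Genes of mature neutrophils were also abundant, although the cells are labelled as lineage negative. The 10 genes of that list summed to 870707 to 1339425 normalized counts in a library, led by S100a9 with a mean of 277945, and none was called in any comparison of 2 genotypes. Y-linked transcripts, read from Ddx3y, were present in 0 of 3 WT libraries, 2 of 3 Kdm6bΔ/+ libraries, 1 of 3 Asxl1Y588XTg libraries, and 3 of 3 double-mutant libraries, so the sex of the mice was not balanced over the genotypes. Between WT and double-mutant mice, sex and genotype cannot be told apart.

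In WT mice, the genes spanned a wide range of levels. Per kilobase of exon, the highest WT means were those of Top2a (2526 normalized counts per kilobase), Mcm6 (2140), Mcm5 (2100), Rrm2 (2061), and Mki67 (1996). Top2a encodes the topoisomerase that untangles chromosomes, and Rrm2 the inducible subunit of ribonucleotide reductase. The lowest was Ccnd1 with 38.2, below Ccnb1 and Mcm10 with 213 each. The genes were also steady between mice. Their coefficient of variation within a genotype had a median of 5.80%, against 7.85% for the 6234 tested genes with a mean of at least 500 normalized counts and 14.4% for all genes tested. The sets were not matched for level, and Ccnd1 lies below that minimum. The part of count level in the difference was not tested. Cdk1, the kinase that drives entry into mitosis, varied least (2.46%). Ccne1 (22.4%), Ccnd1 (19.0%), and Mki67 (18.6%) varied most. Among the genes that vary most, Ccne1 and Ccnd1 act before S phase, and Mki67 coats mitotic chromosomes.

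**Figure D1:**
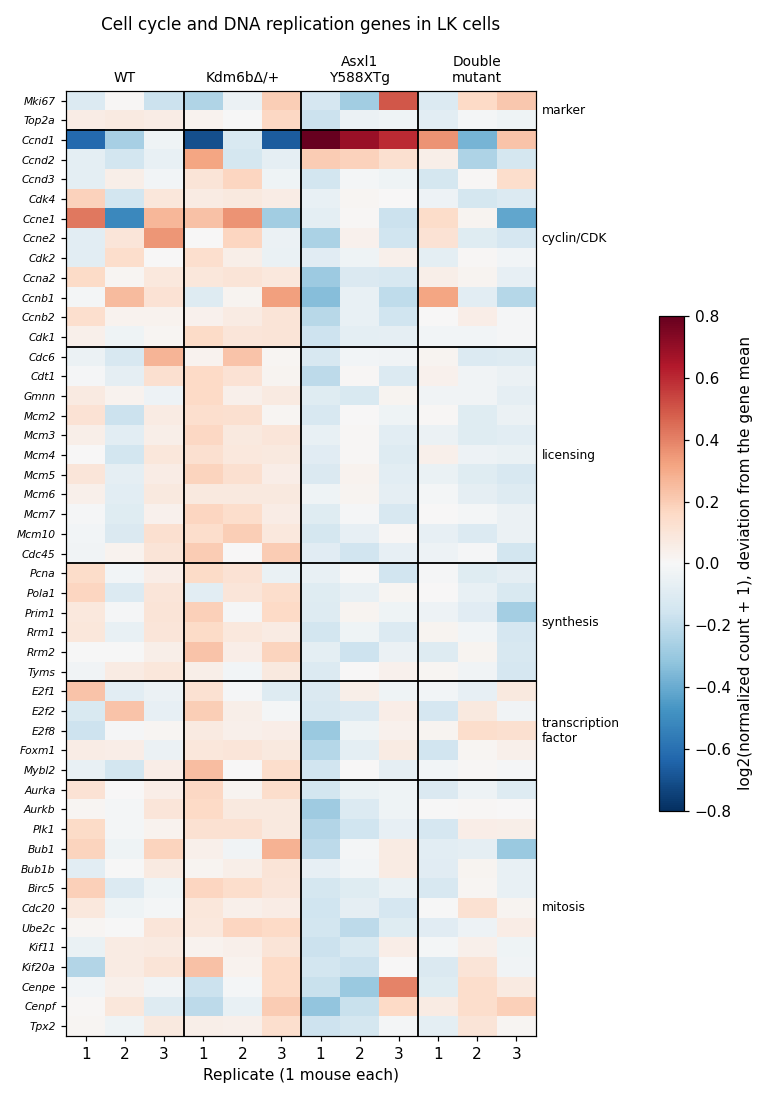
Heat map of the 48 genes (rows, grouped by role) in the 12 libraries (columns, 3 mice per genotype), coloured by the deviation of log2(normalized count + 1) from the mean of the gene over all libraries. Most cells are pale, Ccnd1 stands out in the 3 Asxl1Y588XTg columns, and Mki67 and Cenpe are high in the third of them.

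The comparison of Asxl1Y588XTg with WT asks what the truncated ASXL1 does to LK cells on its own. Ccnd1, which encodes cyclin D1, was the only 1 of the 48 genes called, and it was upregulated. Of all genes tested, 1.61% were called in this comparison. Ccnd1 stood at 143, 182, and 215 normalized counts in WT mice, 134, 202, and 138 in Kdm6bΔ/+ mice, 413, 355, and 333 in Asxl1Y588XTg mice, and 283, 170, and 258 in double-mutant mice. The 3 Asxl1Y588XTg mice lay above all others, and the other 3 genotypes overlapped. The log2 fold change against WT was 1.03 ± 0.18 (SE; adjusted p = 0.0213, edgeR). The call rested on all 3 Asxl1Y588XTg libraries: leaving out replicate 1, 2, or 3 gave log2 fold changes of 0.94, 1.06, and 1.10 with adjusted p of 0.101, 0.0768, and 0.0548. With the replicate block the call was also lost, at a log2 fold change of 1.04 (adjusted p = 0.0853, edgeR). Exons of Ccnd1 (chr7:144929931-144939925, minus strand, mm10) share bases with a gene on the opposite strand, LTO1, and the strand setting of the counting is not given in the sources used here. Others of the 48 genes share exon bases with an opposite-strand gene too, among them Ccnd2, Ccnd3, Cdk4, Ccna2, Cdc45, Mcm7, E2f8, Plk1, Cdc20, and Ube2c. Outside the 48 genes, so does Cdkn1c.

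Ccnd1 moved together with markers of stem cells. A list of 14 genes of hematopoietic stem cells, led by the transcription factor Hlf, summed to 2029, 2038, and 2704 normalized counts in WT, 1812, 2209, and 2068 in Kdm6bΔ/+, 6658, 6602, and 5392 in Asxl1Y588XTg, and 2788, 2212, and 3190 in double-mutant mice. Of these 14 genes, 11 were called higher in Asxl1Y588XTg than in WT mice and 9 lower in double-mutant than in Asxl1Y588XTg mice. Genes of endothelial and stromal cells were picked after values were seen, because such cells can express Ccnd1. The bead selection for cKit leaves out cells that lack it, and whether such cells remained was not tested. The 6 endothelial genes, led by Eng, summed to 1873 to 2191 in WT and 2368 to 3055 in Asxl1Y588XTg mice. They summed to 1909 to 2000 in Kdm6bΔ/+ and 1891 to 2271 in double-mutant mice. The 8 stromal genes, led by Cxcl12, summed to 1142 to 1441 in WT, 1133 to 2293 in Kdm6bΔ/+, 1416 to 1815 in Asxl1Y588XTg, and 1622 to 3263 in double-mutant mice. None of these endothelial and stromal genes was called in any comparison of 2 genotypes. The megakaryocyte list, led by Vwf, summed to 2843, 1501, and 2861 in WT, 1906, 2057, and 1612 in Kdm6bΔ/+, 6004, 12347, and 4605 in Asxl1Y588XTg, and 4693, 3023, and 4117 in double-mutant mice. Its 7 tested genes were all positive in Asxl1Y588XTg against WT, with a median of 1.23 and none called. The part of any of these cell types in the Ccnd1 result was not tested.

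Cyclin D2 was the next of the D-type cyclins in this comparison, and its level is far above that of cyclin D1 per kilobase (331 against 38.2 in WT). Ccnd2 stood at 3150, 3002, and 3187 normalized counts in WT, 4134, 3013, and 3158 in Kdm6bΔ/+, 3820, 3781, and 3630 in Asxl1Y588XTg, and 3431, 2799, and 3006 in double-mutant mice. Asxl1Y588XTg mice lay above WT and above double-mutant mice without overlap, while 1 Kdm6bΔ/+ mouse exceeded them all. The log2 fold change against WT was 0.26 ± 0.07 (SE), short of the threshold (adjusted p = 0.132, edgeR). Ccnd3, the third D-type cyclin, was at 4384 to 4766 in WT and 4179 to 4571 in Asxl1Y588XTg mice, with a log2 fold change of -0.05 (95% interval -0.22 to 0.12). Cdk4, the kinase partner of the 3 cyclins, ranged from 4336 to 5477 in WT and from 4621 to 4857 in Asxl1Y588XTg mice.

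**Figure D2:**
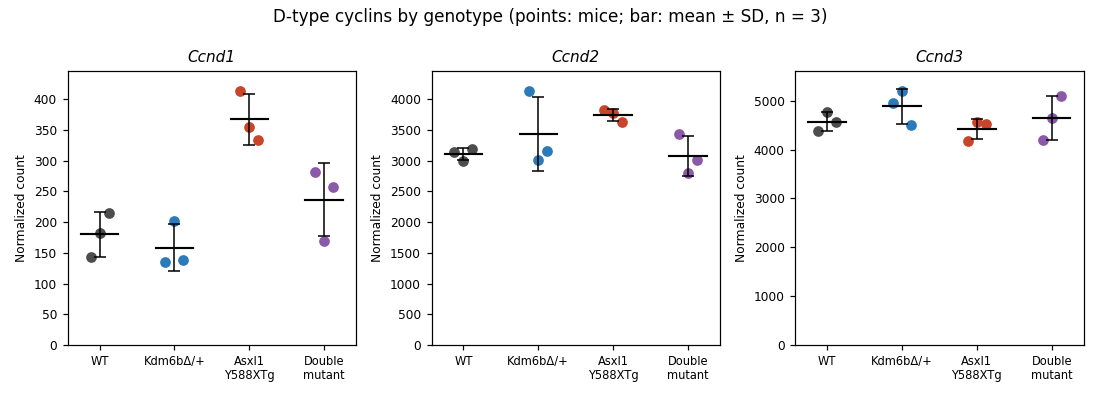
Normalized counts of Ccnd1, Ccnd2, and Ccnd3 (vertical axes, from 0) by genotype, with a point for each mouse and a bar for the mean ± SD (n = 3). Ccnd1 is at 333 to 413 in the 3 Asxl1Y588XTg mice and at 134 to 283 in the 9 others, and Ccnd3 overlaps between all genotypes.

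The other 45 genes had small differences between Asxl1Y588XTg and WT mice, mostly towards lower values. Of the 48 genes, 44 had a negative log2 fold change, with a median of -0.10. Over all 15825 genes, 8256 were negative and the median was -0.01. The 48 genes were measured in the same mice and are not independent observations. By mouse, their mean log2 deviation was 0.02, -0.03, and 0.06 in WT and -0.12, -0.04, and -0.006 in Asxl1Y588XTg mice, so these 2 groups overlapped. It was 0.08, 0.07, and 0.07 in Kdm6bΔ/+ and -0.02, -0.02, and -0.05 in double-mutant mice. Asxl1Y588XTg replicate 1 was the lowest library for these genes, and without it the median log2 fold change was -0.07. That library also had the highest mean log2 deviation in the marker lists of T and NK cells (1.45), monocytes (0.78), and endothelial cells (0.98). None of the 48 genes was called downregulated by edgeR or by DESeq2. At an unadjusted p below 0.05, 2 genes were higher (Ccnd1 and Ccnd2) and 5 lower (Ccna2, Ccnb1, Ccnb2, Plk1, and Ube2c), 14.6% of the 48 genes against 9.35% of all genes tested (7.3% higher and 2.05% lower). These 7 genes became 3 without Asxl1Y588XTg replicate 1 and 12 without WT replicate 2. In 12 genes (25% of the 48) all Asxl1Y588XTg mice lay below all WT mice, as in 5.21% of all genes tested, and 2 genes (4.17%) lay entirely above, as in 10.5% of all genes. For 45 of the 48 genes, the 95% interval of the log2 fold change lay inside a change of 1.5-fold in either direction, and the exceptions were Ccnd1, Ccne1, and Mki67. The erythroid marker list, another dividing lineage, summed to 19241 to 36396 normalized counts in WT and 19819 to 29298 in Asxl1Y588XTg mice. All 14 erythroid genes were negative, with a median of -0.20 and none called. All 8 genes of neutrophil granules, led by Mpo, were negative as well, with a median of -0.09 and none called. Of 10 B cell genes, 9 were negative, with a median of -0.63 and none called. The 14 stem cell genes were all positive, with a median of 1.90 and 11 called. All 7 megakaryocyte genes were positive too, with a median of 1.23 and none called. The part of these cells in the differences was not tested.

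Of the 5 lower genes, Ccna2, encoding the cyclin of S and G2 phase, stood at 5520, 5034, and 5271 normalized counts in WT and 4063, 4584, and 4552 in Asxl1Y588XTg mice, with no overlap (log2 fold change -0.26 ± 0.08, adjusted p = 0.195, edgeR). Ccnb1, a mitotic cyclin, stood at 815, 981, and 894 in WT and 650, 792, and 717 in Asxl1Y588XTg mice (log2 fold change -0.32 ± 0.11, adjusted p = 0.299, edgeR). Ccnb2, its close relative, stood at 2614, 2431, and 2430 against 2042, 2281, and 2132. In each of these 3 cyclins the groups were apart. Plk1, the Polo-like kinase of spindle assembly, was at 2589, 2308, and 2378 in WT and 1981, 2086, and 2229 in Asxl1Y588XTg mice. Ube2c, the ubiquitin-conjugating enzyme that marks cyclins for destruction, was at 2300, 2274, and 2437 against 2052, 1968, and 2130. The log2 fold changes of these genes were -0.21 for Ccnb2, -0.21 for Plk1, and -0.19 for Ube2c, with adjusted p of 0.33 to 0.425.

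Over the 13 mitotic genes, the median log2 fold change was -0.13. The 11 licensing genes were all negative, with a median of -0.07, and 1 of them lay entirely below WT. Mcm5, a subunit of the replicative helicase, stood at 8798, 7802, and 8552 in WT and 7589, 8363, and 7747 in Asxl1Y588XTg mice (log2 fold change -0.09, 95% interval -0.26 to 0.09). The 6 genes of DNA synthesis had a median of -0.11. Pcna, the sliding clamp of DNA polymerases, was at 3123, 2779, and 2926 in WT and 2706, 2817, and 2544 in Asxl1Y588XTg mice. The ranges of Mcm5 and Pcna overlapped between the 2 genotypes, whereas Cdc45 among the licensing genes and Rrm2 among the synthesis genes lay entirely below WT, with log2 fold changes of -0.14 and -0.11. Among the 5 transcription factors, with a median of -0.08, E2f1 was at 894 to 1111 in WT and 875 to 976 in Asxl1Y588XTg mice, and Foxm1 at 1730 to 1868 and 1529 to 1875. Ccne1, the cyclin of the G1/S transition, was too variable to compare, with 1066, 558, and 957 in WT against 754, 803, and 708 in Asxl1Y588XTg mice.

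**Figure D3:**
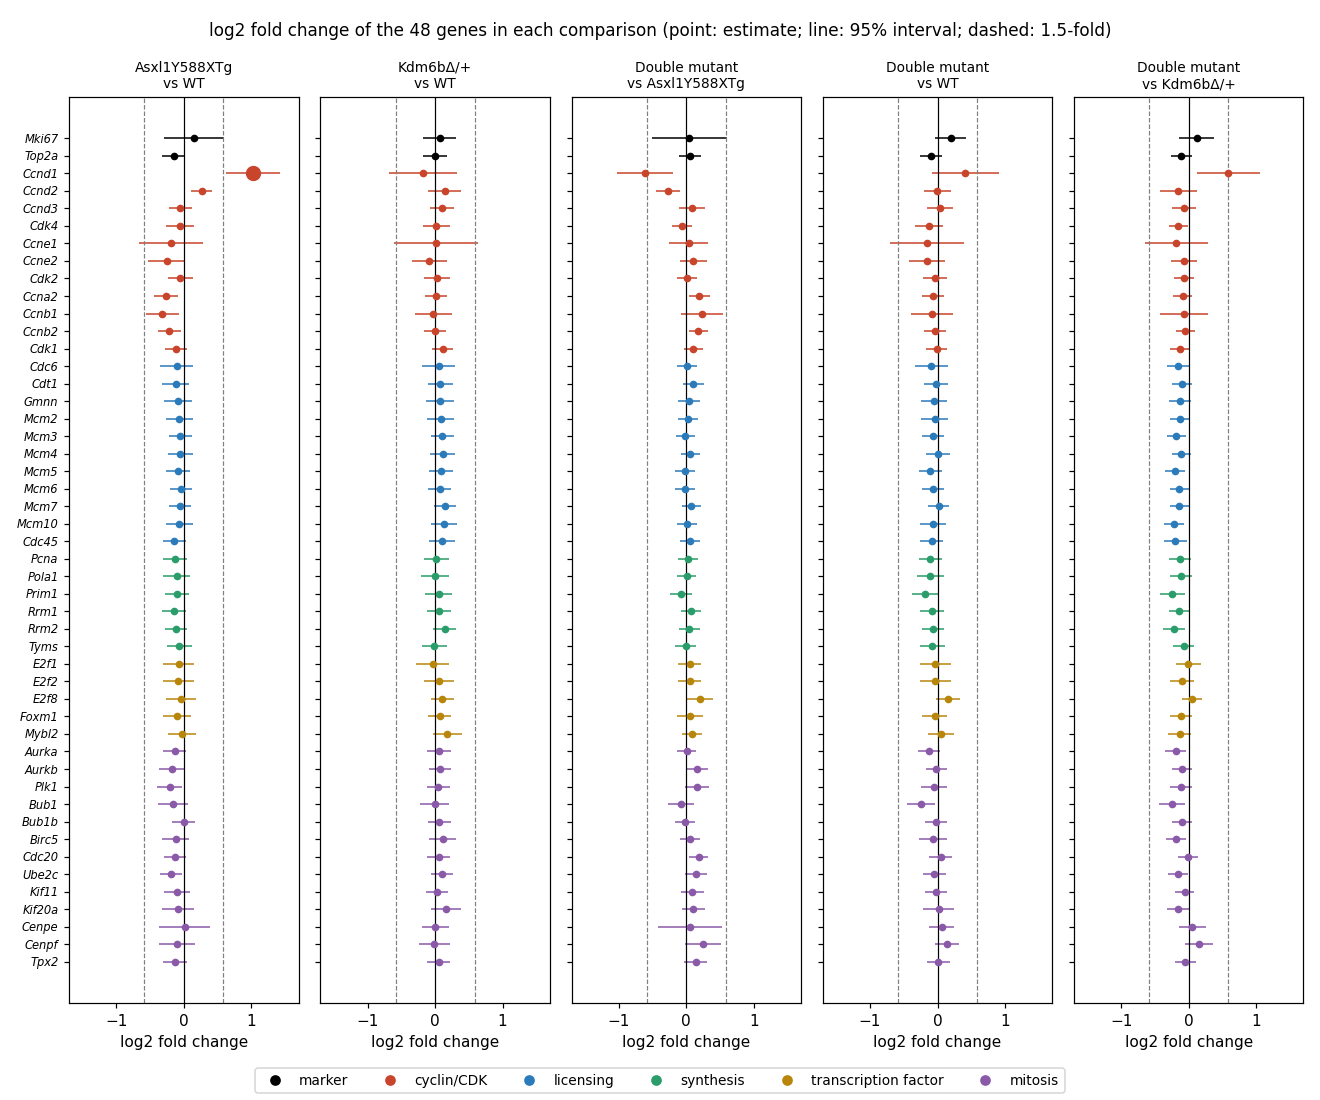
log2 fold changes (horizontal axes) of the 48 genes (rows, coloured by role) in 5 comparisons, with the point for the estimate, the line for its 95% interval, dashed lines at 1.5-fold, and a large point for the 1 called gene. Ccnd1 in Asxl1Y588XTg against WT is the single large point, and 44 points of the first panel and 43 of the last lie to the left of 0.

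Mki67, the standard marker of cycling cells, did not separate the genotypes. It stood at 19795, 21496, and 18960 normalized counts in WT, 18078, 20659, and 24378 in Kdm6bΔ/+, 19397, 17591, and 30087 in Asxl1Y588XTg, and 19788, 23753, and 24798 in double-mutant mice. The mean of Asxl1Y588XTg mice was 22358 ± 6754 (SD, n = 3), and replicate 3 was far above the other two. The same library was high for Cenpe, a kinetochore motor, with 3674 against 2462 and 2272, and for Cenpf, a kinetochore protein, with 3828 against 2746 and 3018. Top2a, at 19337, 21067, and 21207, did not set it apart, nor did Ccnb1. Mki67, Cenpe, and Cenpf have long transcripts (10061, 7910, and 11130 bases for the longest of each). Over genes whose longest transcript reaches 8000 bases, the median deviation of that library was 0.05 on the log2 scale, against -0.11 and -0.03 for replicates 1 and 2 and a range of -0.05 to 0.06 over the 9 libraries of the other genotypes. Over the class of 4000 to 8000 bases, which holds Cenpe, it was 0.01 in that library. The part of transcript length in the values of Mki67, Cenpe, and Cenpf was not tested.

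**Figure D4:**
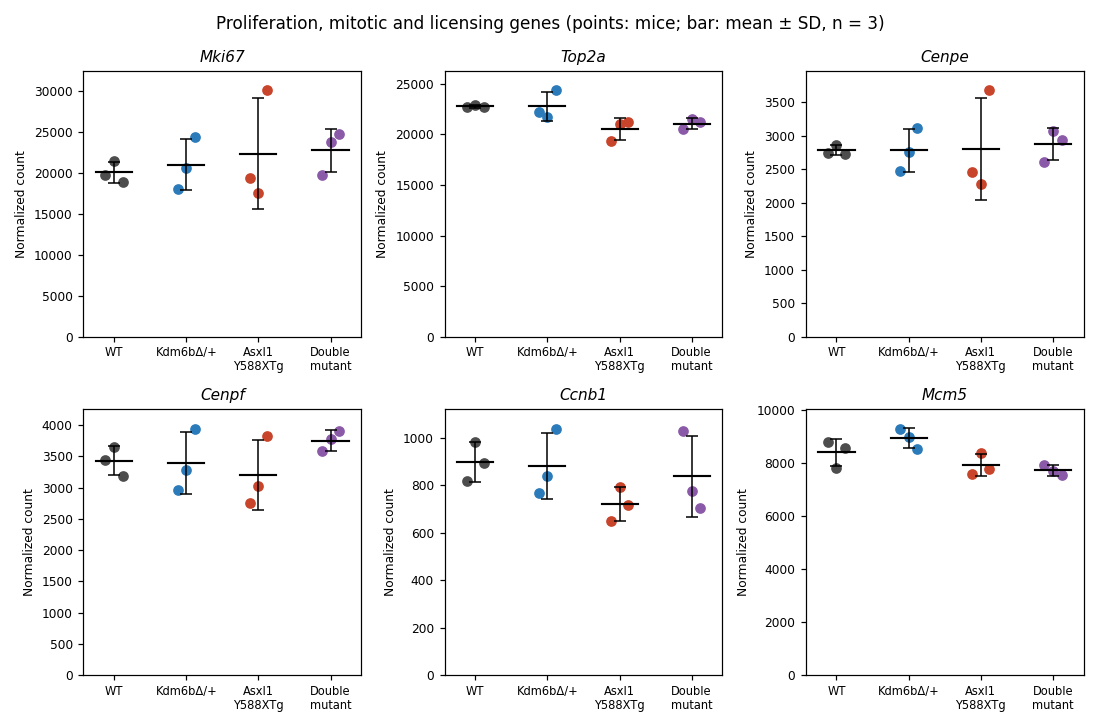
Normalized counts (vertical axes, from 0) of Mki67, Top2a, Cenpe, Cenpf, Ccnb1, and Mcm5 by genotype, with a point for each mouse and a bar for the mean ± SD (n = 3). In Mki67 and Cenpe 1 Asxl1Y588XTg mouse lies above every other mouse, at 30087 and 3674, whereas its Top2a value of 21207 lies among the rest.

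The comparison of Kdm6bΔ/+ with WT asks what the loss of 1 Kdm6b allele does without the transgene. None of the 48 genes was called by edgeR or DESeq2, and none had an unadjusted p below 0.05 in either tool. Over all genes tested, 0.0948% were called and 3.49% had such a p. The log2 fold changes were positive for 38 of the 48 genes, with a median of 0.06 against 0.00 over all genes, and for 46 genes the 95% interval lay inside a 1.5-fold change. The median of the 48 genes was 0.09 without WT replicate 3 and 0.04 without WT replicate 2. The 8 granule genes were positive too, with a median of 0.16 and none called, and summed to 377546, 300162, and 389710 normalized counts against 294639 to 332720 in WT. Negative values were found in all 14 erythroid genes (median -0.29, 1 called), all 10 B cell genes (median -0.33), and all 7 mast cell genes tested (median -0.22). The part of these cells in the values of the 48 genes was not tested. All 11 licensing genes were positive, with a median of 0.09. Mcm7 stood at 4844, 4568, and 4994 normalized counts in WT and 5486, 5375, and 5082 in Kdm6bΔ/+ mice, without overlap (log2 fold change 0.15 ± 0.08). Rrm2 stood at 5658, 5637, and 5840 against 6639, 5875, and 6393. Such full separation upward was seen in 7 of the 48 genes (14.6%) and in 4.13% of all genes tested, and downward in 0 of 48 and 4.8%. Top2a, with a log2 fold change of 0.00 (95% interval -0.18 to 0.18), and Ccna2, with 0.01 (-0.16 to 0.17), lay close to WT.

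The comparison of double-mutant with Asxl1Y588XTg mice asks what the same allele loss does where the transgene is present. It uses the same Asxl1Y588XTg mice as the comparison with WT, so the fold changes of the 2 comparisons are not independent. None of the 48 genes was called by edgeR or DESeq2, whereas 1.74% of all genes were. Ccnd1 was at 283, 170, and 258 normalized counts against 413, 355, and 333 (log2 fold change -0.61 ± 0.18, adjusted p = 0.141, edgeR). The groups did not overlap. Without the filter on low counts, the log2 fold change of Ccnd1 was again -0.61, its adjusted p was 0.000448 (edgeR), and it was called lower. Calls over all genes rose in that run too, to 143 higher and 665 lower, against 23 and 252 with the filter. Ccnd2, at 3431, 2799, and 3006 against 3820, 3781, and 3630, had a log2 fold change of -0.27 ± 0.08 (adjusted p = 0.134, edgeR).

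Of the remaining genes, most lay slightly above Asxl1Y588XTg mice. In all, 38 of 48 were positive, with a median of 0.05, and 7790 of the 15825 genes tested were positive. At an unadjusted p below 0.05, Cdc20, Ccna2, Ccnb2, and E2f8 were higher and Ccnd1 and Ccnd2 lower, 12.5% of the 48 genes against 15.4% of all genes (5.64% higher and 9.81% lower). The count was 6 in 1 fit of all 4 genotypes as well, 1 when the Y-linked covariate was added to that fit, 2 without Asxl1Y588XTg replicate 1 or without double-mutant replicate 2, and 13 without Asxl1Y588XTg replicate 3. The 38 positive genes became 33 in the fit of all 4 genotypes and 31 with the covariate in it, 29 without Asxl1Y588XTg replicate 1, and 31 without double-mutant replicate 2. In this comparison the 14 stem cell genes were all negative, with a median of -1.39 and 9 called. The 10 neutrophil genes were all positive, with a median of 0.13, and 9 of 10 B cell genes were positive, with a median of 0.73, none of them called. Of 10 T and NK cell genes, 8 were negative, with a median of -0.95, 2 at an unadjusted p below 0.05, and none called. The part of these cells in the values of the 48 genes was not tested. Y-linked transcripts were present in 1 of 3 Asxl1Y588XTg and 3 of 3 double-mutant libraries. Complete separation was found upward in 6 genes (12.5%, against 7.11% of all genes) and downward in 2 (4.17%, against 14.1%). Cdc20, which activates the anaphase-promoting complex, stood at 2513, 2743, and 2557 normalized counts against 2264, 2399, and 2303 (log2 fold change 0.18 ± 0.07, adjusted p = 0.207, edgeR). Ccna2 stood at 5145, 5042, and 4743 against 4063, 4584, and 4552. Both pairs of groups were apart, by less than the 1.5-fold threshold. Mcm5 (95% interval -0.17 to 0.13), Pcna (-0.12 to 0.18), and E2f1 (-0.12 to 0.22) had intervals around 0 on the log2 scale.

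Against WT, double-mutant mice had no called gene among the 48 by edgeR or DESeq2, and 0.215% of all genes were called. Bub1, a kinase of the spindle checkpoint, was the single gene with an unadjusted p below 0.05 (2.08% of the 48, against 6.79% of all genes). It stood at 2473, 2130, and 2471 normalized counts in WT and 2058, 2082, and 1777 in double-mutant mice (log2 fold change -0.25 ± 0.09, adjusted p = 0.661, edgeR). The count was 8 without WT replicate 2, 3 in 1 fit of all 4 genotypes, 4 when the Y-linked covariate was added to that fit, and 0 without WT replicate 1, WT replicate 3, or double-mutant replicate 3. Negative values were found in 36 of 48 genes. Their median was -0.05, against -0.06 in the fit of all 4 genotypes and -0.07 with the covariate in it. The 14 stem cell genes were all positive, with a median of 0.54, 3 at an unadjusted p below 0.05, and none called. The 7 megakaryocyte genes were positive too, with a median of 0.62 and 1 (Ppbp) called. Complete separation was upward in 1 gene (2.08%, against 6.68% of all genes) and downward in 4 (8.33%, against 6.87%). The log2 fold change of Ccnd1 was 0.41 (95% interval -0.08 to 0.91) and that of Ccnd2 was 0.00 (-0.20 to 0.19). All 3 double-mutant libraries and no WT library had Y-linked transcripts. Of the 14 erythroid genes, 3 (Hba-a2, Hbb-bt, and Alas2) were called lower in double-mutant than in WT mice and 1 (Hba-a2) lower in Kdm6bΔ/+ than in WT mice, and the part of any of these cells in the values of the 48 genes was not tested.

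Double-mutant and Kdm6bΔ/+ mice differ in the transgene, with 1 Kdm6b allele lost in both. Again none of the 48 genes was called by edgeR or DESeq2, and 0.0948% of all genes were. The small differences leaned to lower values: 43 of the 48 genes were negative, with a median of -0.12, against 7869 of 15825 genes and a median of 0.00. At an unadjusted p below 0.05, 12 genes were lower and 1, Ccnd1, higher (27.1% of the 48 genes, against 12.2% of all genes, with 6.54% higher and 5.67% lower). These 13 genes became 7 without Kdm6bΔ/+ replicate 1 and 7 without double-mutant replicate 3. The 8 granule genes were all negative as well, with a median of -0.17, of which 2 (Mpo and Ms4a3) had an unadjusted p below 0.05 and none was called. Of the 14 stem cell genes, 13 were positive, with a median of 0.65, 8 at an unadjusted p below 0.05, and none called. All 7 megakaryocyte genes were positive, with a median of 0.73, 6 at an unadjusted p below 0.05, and 1 (Itga2b) called. The part of these cells in the values of the 48 genes was not tested. The 12 were Mcm3, Mcm5, Mcm6, Mcm10, and Cdc45 among licensing genes, Prim1 and Rrm2 among synthesis genes, Aurka, Bub1, Birc5, and Ube2c among mitotic genes, and Cdk4. In 23 genes (47.9%), all double-mutant mice lay below all Kdm6bΔ/+ mice, as in 9.57% of all genes, and 0 lay entirely above, as in 9.32% of all genes. Transcript length moved with these genotypes as well. Over 3307 genes with a mean of at least 500 normalized counts and a longest transcript under 4000 bases, the median deviation on the log2 scale was -0.03, -0.02, and -0.06 in double-mutant and 0.06, 0.03, and 0.04 in Kdm6bΔ/+ libraries. Over 449 genes of 8000 bases or more it was 0.06, 0.04, and 0.04 against -0.03, -0.04, and 0.03. The groups did not overlap in either class, and the part of transcript length in the values of the 48 genes was not tested.

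Mcm5 stood at 7919, 7673, and 7525 normalized counts in double-mutant and 9279, 8981, and 8512 in Kdm6bΔ/+ mice (log2 fold change -0.21 ± 0.07, adjusted p = 0.265, edgeR). Mcm10, which helps the helicase start, stood at 1560, 1517, and 1583 against 1806, 1872, and 1731 (log2 fold change -0.21 ± 0.07). Rrm2 stood at 5264, 5756, and 5184 against 6639, 5875, and 6393 (log2 fold change -0.22 ± 0.07). In these 3 genes the groups did not overlap, and no difference reached 1.5-fold. Prim1, the catalytic subunit of the primase, had the log2 fold change -0.25 ± 0.08, and Birc5, which encodes survivin, -0.19 ± 0.07. The MCM genes were also among those with positive values in Kdm6bΔ/+ against WT, a comparison that shares the Kdm6bΔ/+ mice. Kdm6bΔ/+ replicates 1 and 3 and all double-mutant replicates had Y-linked transcripts. When these were a covariate in a fit of all 4 genotypes, the median of the 48 genes was -0.13.

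The interaction tests whether the allele loss acts differently with and without the transgene. None of the 48 genes was called by edgeR or DESeq2, and 0.0126% of all genes were. Ccnd2 was the single gene with an unadjusted p below 0.05 (2.08% of the 48, against 6.87% of all genes), with a log2 difference of -0.42 ± 0.15 (adjusted p = 0.56, edgeR). For Ccnd1 the difference was -0.45 (95% interval -1.09 to 0.19). For Ccnb1 it was 0.24 (-0.19 to 0.67), and for Mki67 -0.04 (-0.59 to 0.51). The 14 stem cell genes were all negative, with a median of -1.07, 9 at an unadjusted p below 0.05, and none called. The part of stem cells in the values of the 48 genes was not tested. The median over the 48 genes was -0.03, against -0.02 over all genes. It was -0.06 without Asxl1Y588XTg replicate 1 and -0.007 without WT replicate 2.

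The promoters of the genes were searched for words known from other cell cycle genes. In such promoters, E2F factors bind words such as TTTGGCGC or TTTCGCGC, the DREAM complex binds the CHR element, TTTGAA, and NF-Y binds CCAAT boxes. RefSeq promoters (GRCm38.p6) were at hand for 38 of the 48 genes, with 41 start sites, and the 250 bases before each start were searched on both strands for each word. No word contains another. CCAAT was found in 32 of 41 (78.05%) and in 33.85% of all 32851 promoters, TTTGAA in 11 of 41 (26.83%) against 15.99%, and an E2F word in 4 of 41 (9.76%) against 0.65%. By role, CCAAT was in 9 of 10 promoters of mitotic genes, 8 of 10 of licensing genes, and 5 of 6 of synthesis genes. TTTGAA was in 3, 2, and 0 of these, and an E2F word in 0, 2, and 1. CCAAT was in 5 of 8 promoters of cyclins and cyclin-dependent kinases, 3 of 5 of transcription factors, and 2 of 2 of proliferation markers. For these roles, TTTGAA was in 2, 2, and 2 promoters, and an E2F word in 1, 0, and 0. A match is a description of the letters and not evidence of binding. Shown are 120 bases before the start of each of the 4 genes with the smallest p among those lower in Asxl1Y588XTg than WT mice, then of the 4 with the smallest p in double-mutant against Kdm6bΔ/+ mice, both among genes with a promoter at hand. Each is 5′ to 3′ on the strand of its gene and ends before both the RefSeq and the GENCODE start, and capitals mark CCAAT or its complement ATTGG, the only words found in these stretches.
Ccnb1 (chr13:100786571-100786690, minus strand): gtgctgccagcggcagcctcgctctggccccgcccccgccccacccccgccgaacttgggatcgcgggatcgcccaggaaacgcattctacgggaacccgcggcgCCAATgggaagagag
Ccnb2 (chr9:70421555-70421674, minus strand): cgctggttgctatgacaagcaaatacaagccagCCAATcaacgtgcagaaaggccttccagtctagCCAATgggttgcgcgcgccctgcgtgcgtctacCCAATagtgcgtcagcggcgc
Plk1 (chr7:122159315-122159434, plus strand): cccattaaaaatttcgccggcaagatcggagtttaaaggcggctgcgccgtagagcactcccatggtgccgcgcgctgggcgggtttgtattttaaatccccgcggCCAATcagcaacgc
Ube2c (chr2:164769778-164769897, plus strand): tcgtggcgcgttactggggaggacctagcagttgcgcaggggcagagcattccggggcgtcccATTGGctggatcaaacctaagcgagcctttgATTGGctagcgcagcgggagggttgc
Mcm5 (chr8:75109389-75109508, plus strand): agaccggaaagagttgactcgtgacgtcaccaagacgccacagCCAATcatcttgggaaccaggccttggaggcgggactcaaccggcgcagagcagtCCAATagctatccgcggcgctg
Mcm10 (chr2:5012792-5012911, minus strand): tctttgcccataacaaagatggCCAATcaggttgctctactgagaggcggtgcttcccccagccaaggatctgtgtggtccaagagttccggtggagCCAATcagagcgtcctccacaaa
Rrm2 (chr12:24708121-24708240, plus strand): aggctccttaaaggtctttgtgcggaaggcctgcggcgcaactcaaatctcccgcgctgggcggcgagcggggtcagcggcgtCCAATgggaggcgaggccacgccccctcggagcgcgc
Prim1 (chr10:128015048-128015167, plus strand): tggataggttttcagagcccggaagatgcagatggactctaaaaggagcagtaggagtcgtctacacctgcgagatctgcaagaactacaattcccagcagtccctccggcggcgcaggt
Ccnb2 carries 3 CCAAT boxes in this stretch, Ube2c, Mcm5, and Mcm10 carry a pair each, and Prim1 carries none.

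Beyond the 48 genes, 183 further genes of the same machinery were tested: 54 of replication, 97 of mitosis, and 32 of cell cycle control. In Asxl1Y588XTg against WT, 2 were called upregulated and none downregulated, against the 1.61% of all genes, and both belong to cell cycle control. Mycn, a MYC family transcription factor, stood at 91.5, 62.3, and 139 normalized counts in WT, 64.1, 71.4, and 68.5 in Kdm6bΔ/+, 409, 343, and 412 in Asxl1Y588XTg, and 129, 105, and 182 in double-mutant mice. The 3 Asxl1Y588XTg mice lay above all others, with a log2 fold change of 1.99 ± 0.26 against WT (adjusted p = 0.00545, edgeR). Cdkn1c, which encodes the CDK inhibitor p57, stood at 11.9, 9.83, and 13.9 in WT, 17.6, 12.9, and 16.6 in Kdm6bΔ/+, 51.3, 80.5, and 56.7 in Asxl1Y588XTg, and 41.3, 27.0, and 39.2 in double-mutant mice. Its log2 fold change against WT was 2.39 ± 0.39 (adjusted p = 0.0146, edgeR). The call was lost without WT replicate 3 (log2 fold change 2.51, adjusted p = 0.0552, edgeR) and with the replicate block (2.36, adjusted p = 0.0818, edgeR). It was also lost without Asxl1Y588XTg replicate 2 (2.18, adjusted p = 0.105, edgeR) or Asxl1Y588XTg replicate 3 (2.46, adjusted p = 0.0543, edgeR). Both genes are expressed in hematopoietic stem cells, whose markers were also higher in these mice, and the part of those cells was not tested. Cdkn1a, which encodes the CDK inhibitor p21, had a log2 fold change of 0.55 ± 0.16 and was not called (adjusted p = 0.176, edgeR).

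As among the 48 genes, most genes of mitosis had small negative values in that comparison, 88 of 97 with a median of -0.12, and 14 of the 97 had an unadjusted p below 0.05, all lower, as did 2.05% of all genes tested. Aspm, a spindle pole protein, stood at 3511, 3252, and 3277 in WT, 3064, 3199, and 3315 in Kdm6bΔ/+, 2464, 2841, and 2970 in Asxl1Y588XTg, and 3467, 3465, and 3435 in double-mutant mice. The Asxl1Y588XTg mice were the lowest 3 of the 12. Its log2 fold change was -0.28 ± 0.09 against WT (adjusted p = 0.224, edgeR) and 0.34 ± 0.08 in double-mutant against Asxl1Y588XTg mice (adjusted p = 0.0508, edgeR), and its interaction was 0.39 ± 0.10 (adjusted p = 0.341, edgeR). Of the replication genes, 45 of 54 were negative, with a median of -0.08. The difference between the lists was not tested.

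In double-mutant against Asxl1Y588XTg mice, 1 of the 183 genes was called in each direction, against the 1.74% of all genes. Mycn was downregulated, with a log2 fold change of -1.47 ± 0.19 (adjusted p = 0.00874, edgeR). The call was lost without double-mutant replicate 1 (log2 fold change -1.42, adjusted p = 0.0675, edgeR). It was also lost when Y-linked transcripts were a covariate in the fit of all 4 genotypes (-1.35, adjusted p = 0.0779, edgeR). That fit without the covariate kept the call (-1.49, adjusted p = 0.00718, edgeR). Pttg1, which encodes securin, the inhibitor of separase, was upregulated, with a log2 fold change of 1.27 ± 0.11 (adjusted p = 0.000887, edgeR). In the fit of all 4 genotypes its adjusted p was 0.0248 (edgeR), and with the Y-linked covariate its log2 fold change was 1.09 (adjusted p = 0.237, edgeR). Pttg1 stood at 65.0, 149, and 158 normalized counts in WT and 160, 150, and 161 in Asxl1Y588XTg mice. It stood at 565, 428, and 673 in Kdm6bΔ/+ and 361, 380, and 385 in double-mutant mice. All 6 mice with the Kdm6b deletion lay above the 6 without it. In Kdm6bΔ/+ against WT its log2 fold change was 2.17 ± 0.31, just short of the threshold (adjusted p = 0.0703, edgeR), and DESeq2 called it. None of the other 182 genes was called in that comparison. Pttg1 (chr11:43420250-43426251, minus strand) and Kdm6b (chr11:69398508-69413675, minus strand) lie on the same chromosome, 26.0 megabases apart.

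**Figure D5:**
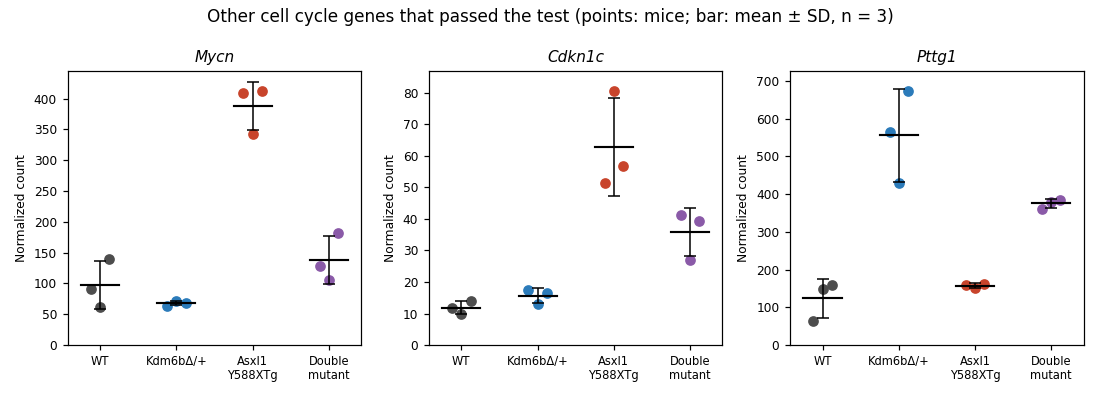
Normalized counts (vertical axes, from 0) of Mycn, Cdkn1c, and Pttg1 by genotype, with a point for each mouse and a bar for the mean ± SD (n = 3). Mycn is at 343 to 412 in Asxl1Y588XTg mice and at most 182 elsewhere, and Pttg1 is at 361 or more in the 6 mice with the Kdm6b deletion and at most 161 in the other 6.

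In the other 2 comparisons none of the 183 genes was called by edgeR. DESeq2 called 1 in each. Against WT, double-mutant mice had 11 of these genes with an unadjusted p below 0.05, 5 higher and 6 lower (6.01%, against 6.79% of all genes), with Pttg1 at a log2 fold change of 1.62 ± 0.27 (adjusted p = 0.0611, edgeR). Against Kdm6bΔ/+ mice there were 25, of which 2, Mycn and Cdkn1c, were higher and 23 lower. That is 13.7% of the 183 genes, against 12.2% of all genes (6.54% higher and 5.67% lower). The 54 replication genes had a median of -0.12, with 47 negative.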

How the data were processed

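RNA from LK cells of individual mice was sequenced with 50-base reads. The labels name a NEB Ultra RNA kit and a NextSeq 500, and the study's methods a stranded ribosomal depletion kit and a HiSeq 3000, so the kit and strand setting are unsure. The authors trimmed the reads with Trimmomatic, aligned them to mm10 with STAR, and counted them on genes with HTSeq, and the deposited values are raw counts without normalization. The gene annotation is not given in the sources used here. All 12 columns were used.

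Groups came from the labels. Genes passing filterByExpr over the 4 genotypes (15825 genes, 99.9% of counts) were scaled by TMM and fitted with edgeR 4.0.16 (R 4.3.3, robust quasi-likelihood test), on the 6 libraries of each comparison and on all 12 for the interaction. Adjusted p is the Benjamini-Hochberg value across these 15825 genes. Standard errors are the log2 fold change over the square root of F. Alternatives were DESeq2 1.42.0, RLE size factors, no filter, a mean count of at least 50, 1 fit of all genotypes, a replicate block, each replicate left out, and a covariate for Y-linked transcripts (at least 100 normalized counts of Ddx3y). The steps were tested on simulated data. Positions and exon lengths are from GENCODE vM21 (GRCm38, the assembly that mm10 names). Genes with pseudogene copies by name (Ccnd3, Ccnb1, Ccnb2, Pcna, and Tyms) could have lost or gained reads to these.

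The 48 genes, the gene lists, and the tests were chosen with earlier results of these data known. Genes named were those called in any comparison, the 3 with the smallest p in each direction, 15 fixed genes (Mki67, Top2a, the D-type cyclins, Ccne1, Ccna2, Ccnb1, Cdk1, Mcm5, Pcna, Rrm2, E2f1, Foxm1, and Plk1), and called genes of the other lists. Others, such as Aspm, Cenpe, Cenpf, and Cdkn1a, were named after their values were seen. Replicates of a genotype differed 12.5 to 22.5 times more than counting error alone gives (mean chi-square per degree of freedom). The markers of granules, monocytes, B cells, T and NK cells, mast cells, and megakaryocytes were examined too, and in double-mutant mice 1 megakaryocyte gene (Ppbp) was called higher than in WT and 1 (Itga2b) higher than in Kdm6bΔ/+ mice, with no other call in these 6 lists in the 5 comparisons of 2 genotypes.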

Additional observations from a re-analysis of the deposited data

How the results depend on the processing

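No called result reversed its direction under any alternative run. Of 338 counts and medians recomputed under an alternative, 306 stayed within their limits, and of 1519 log2 fold changes of single genes, 1506 kept their side of the threshold. Most of these genes were not called in the main fit, and most of the counts were 0 there. An uncalled gene that stayed uncalled was scored as kept, so these shares say little about the few calls. Among single genes, a call was lost in 11 runs and gained in 2. The count of upregulated genes among the 48 in Asxl1Y588XTg against WT was 0 with the replicate block (Ccnd1 adjusted p = 0.0853, edgeR) and 0 to 1 when 1 replicate was left out. No pairing of mice by replicate number was seen: deviations of same-numbered libraries from their group means correlated between -0.11 and 0.07, with a median of -0.03 over 18 pairs. For libraries with different numbers the range was -0.12 to 0.17, with a median of 0.01 over 36 pairs. Whether same-numbered mice shared a litter or a batch cannot be told from these values. Without the filter on low counts, 1 of the 48 genes, Ccnd1, was called lower in double-mutant against Asxl1Y588XTg mice and 1, again Ccnd1, higher in double-mutant against Kdm6bΔ/+ mice. Calls over all genes rose in both runs, in the second to 177 higher and 30 lower, against 9 and 6 with the filter. The median of the 48 genes in double-mutant against Kdm6bΔ/+ mice was -0.0928 with a mean count of at least 50, -0.13 with the Y-linked covariate, and -0.14 to -0.11 when 1 replicate was left out. Among the 183 other genes, the count called in Asxl1Y588XTg against WT was 1 with a mean count of at least 50 or the replicate block and 1 to 2 with 1 replicate left out. In Kdm6bΔ/+ against WT it was 1 (Pttg1) with DESeq2, no filter, the Y-linked covariate, or 1 fit of all genotypes, and 0 to 1 with 1 replicate left out. In double-mutant against Asxl1Y588XTg mice it was 0 with the Y-linked covariate and 1 to 2 with 1 replicate left out. In double-mutant against WT mice it was 1 (Pttg1) with DESeq2, no filter, the replicate block, or 1 fit of all genotypes, and 0 to 1 with 1 replicate left out. In double-mutant against Kdm6bΔ/+ mice it was 1 (Mycn) with DESeq2 or no filter and 0 to 1 with 1 replicate left out, and for the interaction it was 1 (Pttg1) without the filter. The median of the 48 genes without the 3 D-type cyclins, an alternative chosen after seeing the data, stayed within the spread between mice in all 6 comparisons. Leaving out 3 of 48 values can move a median only slightly, so this run could hardly have ended otherwise. The causes were not tested. Differences below 1.5-fold cannot pass the rule for a call at any depth.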

Other observations

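Pttg1 was not alone in separating the mice with the Kdm6b deletion from those without it. Of 10873 genes with a mean of at least 50 normalized counts, 13 had all 6 libraries with the deletion on one side of the other 6 and means more than 1.5-fold apart, 5 of them higher and 8 lower. This count was made after the values of Pttg1 were seen. The same split is close to a split by sex. With the deletion, all libraries but Kdm6bΔ/+ replicate 2 had Y-linked transcripts, and without it only Asxl1Y588XTg replicate 2 had them. The part of sex in these genes was not tested. Of the 13 genes, 4 lie on chromosome 11, which holds Kdm6b and 8.24% of the genes compared, and Pttg1, which prompted the count, is 1 of the 4. Nlrp1b, an inflammasome sensor (chr11:71153102-71230733), stood at 118 to 188 normalized counts with the deletion and 5.49 to 26.2 without it. Its neighbour Nlrp1a (chr11:71092236-71144704) stood at 92.2 to 116 with the deletion and 135 to 245 without it. These genes lie 1.74 and 1.68 megabases from Kdm6b. The fourth gene beside Pttg1, 2610507I01Rik, lies 10.2 megabases away and stood at 117 to 187 with the deletion and 241 to 350 without it. Whether nearness to the targeted allele has a part in these values was not tested.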
